A study of Rattus norvegicus with 48 samples.

Results

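Voltage-gated sodium and calcium channel genes were followed through 48 RNA-seq libraries made from primary cultures of rat cortex. The genes were all rows of the deposited expression table whose symbol named a sodium channel alpha or beta subunit (Scn followed by a number and a or b), a calcium channel alpha1 subunit (Cacna1a to Cacna1s), an alpha2delta subunit (Cacna2d1 to Cacna2d4), a calcium channel beta subunit (Cacnb1 to Cacnb4) or a gamma subunit (Cacng1 to Cacng8). That rule gave 40 of 30211 genes. The 33 with a mean of at least 0.5 CPM (read counts that the authors scaled to a common library size) over the 48 libraries were kept. The 7 others were Cacna1f, Cacna1s, Cacna2d4, Cacng1, Scn4a, Scn10a and Scn11a. Cacna2d4 lay just outside the limit with a mean of 0.497 CPM, and Cacng6 just inside it with 0.846 CPM. All 33 genes kept also passed the filter on low values in the tests.

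The cultures were mixed cell cultures from Sprague-Dawley rats at a fetal age of 18 days, used after 21 days in vitro, and the labels call their cells neurons. There were 16 groups of 3 libraries. Control cultures received none of the agents. The other groups received cocaine (25 µM for 24 h), Tat (the HIV-1 transactivator protein, 6 ng/mL for 48 h), Tat and then cocaine (Tat-Cocaine), or a small molecule, given by itself, together with Tat, or on top of Tat and cocaine. The small molecules were 4OI (250 µM, 4OI being a cell-permeable ester of itaconate), Amlexanox (25 µM, an inhibitor of the kinases TBK1 and IKK-epsilon), Tazemetostat (3 µM, an inhibitor of the histone methyltransferase EZH2) and Senicapoc (1 µM, a blocker of a calcium-activated potassium channel). The labels do not say whether the 3 libraries of a group came from separate preparations of tissue, so the p-values measure the spread between these libraries, which may in part be technical.

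Voltage-gated sodium channels carry the rising phase of the action potential. Each has a pore-forming alpha subunit and beta subunits that alter gating and attach the channel to other proteins. Voltage-gated calcium channels turn depolarisation into calcium entry: P/Q- and N-type channels trigger transmitter release, L-type channels signal to the nucleus, and T-type channels open near rest and shape bursting. The alpha2delta and beta subunits of calcium channels help to bring the pore to the membrane. Most gamma subunits act mainly as TARPs, auxiliary proteins of AMPA-type glutamate receptors, although they carry calcium channel names.

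Each library held 17.5 to 29.1 M reads assigned to genes (median 22.4 M), so that 0.5 CPM stood for 8.58 to 15 reads. All libraries also held the markers of other cells: Gfap (astrocytes) ranged from 2231 to 7582 CPM, Aif1 (microglia) from 28.7 to 488 CPM and Mbp (oligodendrocytes) from 8.92 to 9293 CPM, beside Map2 (neurons) at 215 to 795 CPM. The summed level of 16 neuron markers ranged from 1439 CPM in a Tat-Cocaine-Tazemetostat library to 5864 CPM in an Amlexanox library, with a median of 3767. The summed level of 8 astrocyte markers ranged from 5445 to 13308 CPM and that of 8 microglia and myeloid markers from 236 to 2663 CPM. The library Cocaine 3 stood apart with 25395 CPM of 6 oligodendrocyte markers against a median of 676. In such bulk samples fewer neurons and less RNA per neuron cannot be told apart.

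Many of the channel genes followed the neuron markers from library to library. Within each group the 3 libraries were ordered by the mean log2 level of the 16 neuron markers. For 18 of the 33 genes the library highest in neuron markers was also highest for the channel gene in at least 12 of 16 groups. Scn3a, Cacnb4 and Cacna1i did so in 15 groups each. Scn4b did so in 2 groups, Scn7a and Scn9a in 3 each, and Cacng4 in 5. Scn7a, whose product NaX responds to extracellular sodium and lacks a classical voltage response, followed the astrocyte markers in 12 of 16 groups, and Cacnb3 did so in 13. Scn9a, best known from pain-sensing neurons, followed the microglia and myeloid markers in 14 of 16 groups and Scn4b in 9. The lowest library gave other counts. There 17 of the 33 genes matched the neuron markers in at least 12 groups. Scn7a matched the astrocyte markers in 10 groups and Cacnb3 in 7, while Cacnb3 matched the neuron markers in 9. Scn9a matched the microglia and myeloid markers in 8 groups and Scn4b in 7. These orders are descriptions, since genes of a library share its depth and scaling, and they were not counted over all genes.

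The level of a channel gene was lowest in the Tat-Cocaine-Tazemetostat group for 27 of 33 genes. It was highest in Senicapoc for 12 genes, in Tat-Senicapoc for 7 and in Amlexanox for 6. These counts were not made over all genes. The summed neuron markers ranged from 1439 to 2122 CPM in Tat-Cocaine-Tazemetostat and from 3500 to 5472 CPM in Control. Their part was not tested. Scn2a, the Nav1.2 alpha subunit of developing and adult excitatory axons, shows the spread. Its 3 libraries held 120, 95.1 and 98.2 CPM in Control, 147, 101 and 123 CPM in Tat-Senicapoc, and 52.6, 40.5 and 61.2 CPM in Tat-Cocaine-Tazemetostat. The last 3 libraries lay below every Control library, and the Tat-Senicapoc libraries overlapped Control.

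**Figure D1:**
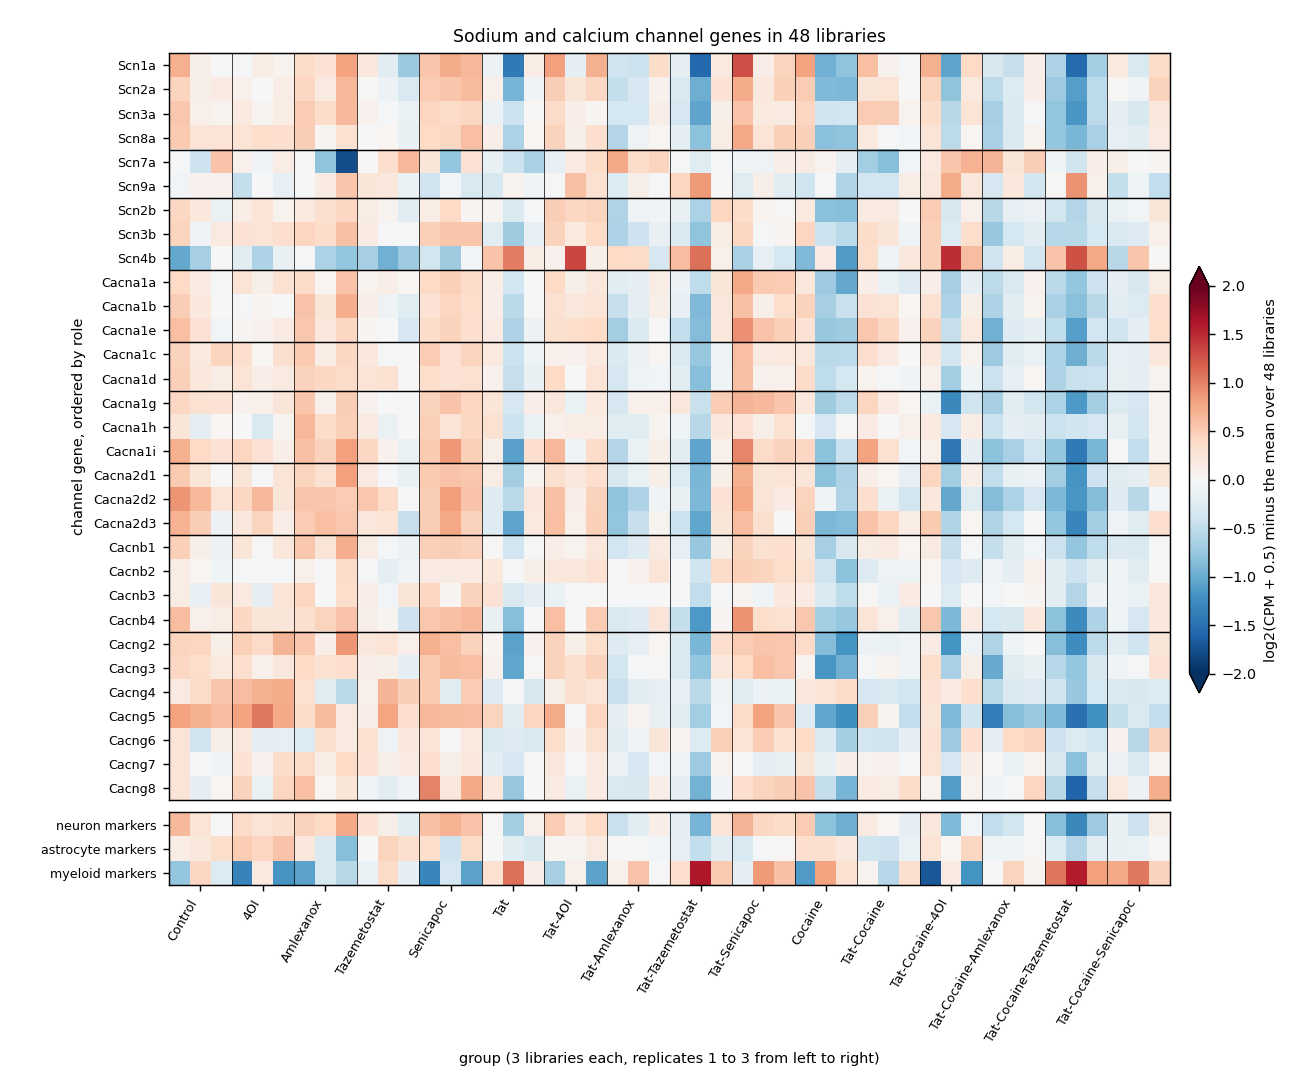
Level of 31 channel genes (rows, ordered by role) in the 48 libraries (columns, by group), as log2(CPM + 0.5) minus the mean of the gene over all libraries, with the neuron, astrocyte and myeloid marker lists drawn below. Most rows are low together in the 3 Tat-Cocaine-Tazemetostat libraries and in Cocaine 2 and 3. The same holds for the single libraries Tat 2, Tat-Tazemetostat 2 and Tat-Cocaine-4OI 2. The rows of Scn4b, Scn7a, Scn9a and Cacng4 differ from most rows.

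The first question was how Tat changed these genes. Tat was compared with its absence in 5 backgrounds (no small molecule, 4OI, Amlexanox, Tazemetostat and Senicapoc) and the differences were averaged, with 15 libraries on each side. The test was limma on log2(CPM + 0.5) across 15890 genes, with Benjamini-Hochberg adjustment (FDR, called at 0.05), and every fold change below is on that scale, which understates changes of low genes. Of the 33 channel genes 16 were lower with Tat and 2 were higher. The 18 called are 54.5% of the channel genes, against 56.5% of all genes tested. By direction, 48.5% were lower against 26.7% of all genes, and 6.06% higher against 29.9%. Without the Amlexanox background the average called 10 channel genes, 2 higher and 8 lower, a count given without the share of all genes. Of all genes called in the full average 52.9% were higher, and 40.8% after quantile normalization. The median change was -0.26 log2 units over the channel genes and -0.00 over all genes. Of the neuron markers 10 of 16 were lower (median -0.35), and of the microglia and myeloid markers 5 of 8 were higher (median 0.94). Of the 8 astrocyte markers 2 were higher and 4 lower. The part of these cell markers in the channel result was not tested. The backgrounds differed. The median of the channel genes was -0.41 without a small molecule, -0.55 with Amlexanox, -0.29 with Tazemetostat, -0.06 with Senicapoc and 0.07 with 4OI. In 4OI cultures Tat called 0 channel genes, and 22 of 33 lay above 0. At an unadjusted p under 0.05 stood 3 of them and 3034 of all 15890 genes.

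All 3 alpha2delta genes kept were lower. Cacna2d2 changed by -0.53 log2 units (SE 0.13, FDR 0.000544), Cacna2d3 by -0.45 (SE 0.15, FDR 0.0109) and Cacna2d1, the target of gabapentin, by -0.28 (SE 0.12, FDR 0.0401), all in limma. Of the beta subunits Cacnb4 (-0.33), Cacnb1 (-0.27) and Cacnb3 (-0.22) fell, and Cacnb2 stood at 0.13 without passing the test. Both L-type pores fell, with -0.33 for Cacna1d and -0.32 for Cacna1c. Of the T-type pores Cacna1i changed by -0.40 and Cacna1h by -0.17, while Cacna1g stood at -0.12. None of the 3 release-type pores passed: Cacna1a (P/Q-type) stood at -0.14, Cacna1b (N-type) at -0.20 and Cacna1e (R-type) at -0.19.

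Of the 7 gamma subunits 4 fell. Cacng4, a TARP, had the smallest FDR of all channel genes (-0.45 log2 units, SE 0.08, FDR 5.79e-06 in limma). Its level in the 15 libraries without Tat was 110, 226 and 268 CPM (lowest, median, highest), and with Tat 110, 143 and 200 CPM. Cacng5, a TARP of the second type, changed by -0.45 (SE 0.12, FDR 0.00135). Its libraries held 6.90, 9.93 and 13.5 CPM without Tat and 3.64, 6.52 and 11.2 CPM with Tat. The 3 Tat libraries and the 3 without Tat did not overlap for Cacng5 in 4 of 5 backgrounds, Senicapoc being the exception. Cacng2 (stargazin) changed by -0.41 and Cacng7 by -0.32. Cacng3 (-0.26), Cacng8 (-0.28) and Cacng6 (0.01) did not pass the test.

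Of the 4 central sodium pores 1 passed the test. Scn3a, the alpha subunit best known from the fetal brain, fell by 0.31 log2 units (FDR 0.0153 in limma). Scn1a (-0.26), Scn2a (-0.24) and Scn8a (-0.25) did not pass, and Scn2a ranged from 71.2 to 139 CPM without Tat and from 44.2 to 147 CPM with it. The beta subunits went apart: Scn3b changed by -0.42 (SE 0.10, FDR 0.00045) and Scn4b by 0.80 (SE 0.16, FDR 7.21e-05), while Scn2b (-0.14) did not pass. Scn4b encodes the beta4 subunit, known for its part in resurgent sodium current. Its level was 1.15, 1.67 and 2.91 CPM (lowest, median, highest) without Tat and 1.64, 3.22 and 7.96 CPM with Tat, and the arms overlapped: the median without Tat lay above the lowest library with Tat. Scn7a (0.13) and Scn9a (0.10) did not pass.

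**Figure D2:**
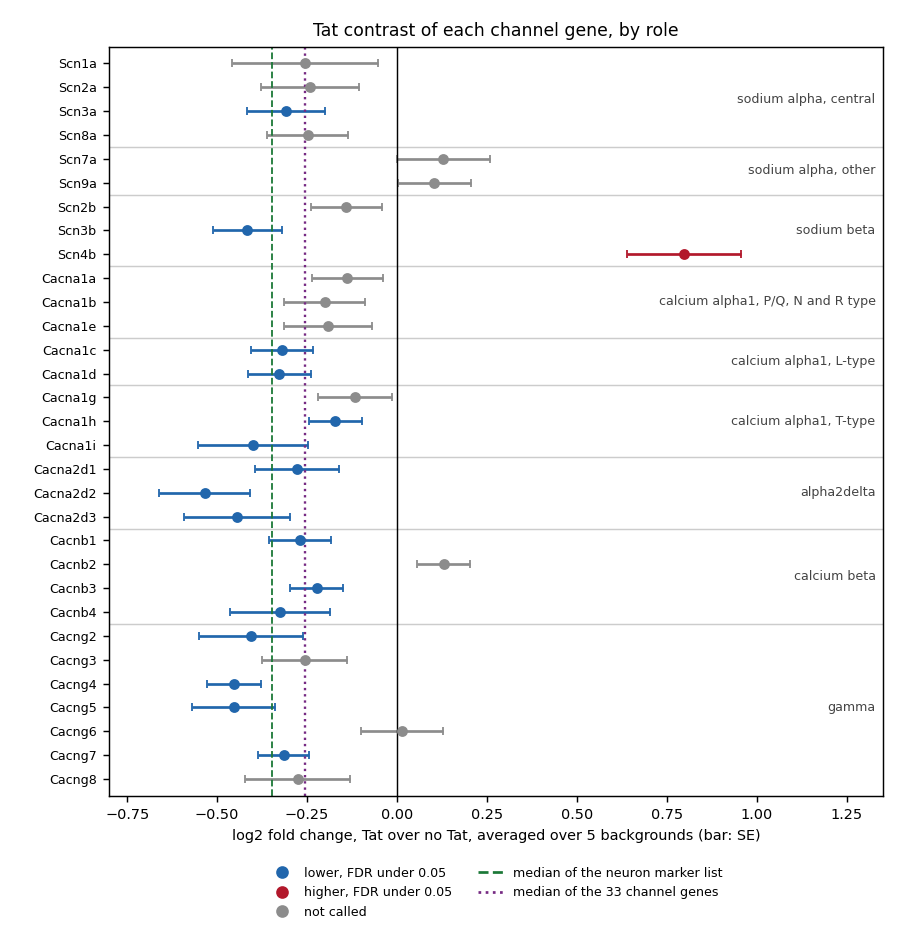
Tat-associated change of 31 channel genes (log2 fold change on the log2(CPM + 0.5) scale, averaged over 5 backgrounds, bars show the standard error), grouped by role, in blue where lower and red where higher at FDR under 0.05, and in grey where not called. The points lie mostly between -0.53 and 0, around the member median (-0.26, dotted) and the neuron marker median (-0.35, dashed), and Scn4b at 0.80 lies apart.

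Without a small molecule, Tat against Control called 4 channel genes, where 21.3% of all genes were called (14.6% higher, 6.7% lower). Scn4b (1.13, SE 0.35, FDR 0.0191) was higher, and Cacna2d2 (-0.80, SE 0.28, FDR 0.0383) and Cacng4 (-0.57, SE 0.17, FDR 0.0135) were lower, all in limma. The Scn4b libraries held 1.15, 1.62 and 2.91 CPM in Control and 4.46, 6.30 and 3.21 CPM in Tat. For this gene every Tat library was above every Control library, and for Cacng4 every Tat library (134, 156 and 129 CPM) was below every Control library (181, 206 and 235 CPM). The neuron markers had a median of -0.47 with 0 of 16 called, 3 of 8 microglia and myeloid markers were higher (median 0.77) and 3 of 8 astrocyte markers were lower (median -0.24), and their part was not tested. Without the library Tat 2 this comparison called 1 channel gene, and leaving out any 1 Control library gave 2.

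Promoter windows help to place these genes in the genome. RefSeq windows of 300 bases (250 before the start of the gene and 50 from it, genome build GRCr8) were at hand for 27 of the 40 genes of the rule, in 30 windows. The other 13 had none, among them Cacna1g, Cacna1h, Cacna1i, Cacna2d4, Cacnb1, Cacnb4, Cacng1, Cacng4, Cacng7, Scn1a and Scn3b. The windows had a median GC content of 62.3% (39 to 88.7%), and all 33469 windows of the genome one of 51.7%. A GC box (GGGCGG, either strand) was in the windows of 14 of 27 genes and in 33.1% of all windows. The 5 windows below belong to the genes that the comparisons turn on, Scn4b, Scn3a, Cacng5 and Scn7a, and to Cacng3 for its rare motif. They are written 5' to 3' on the strand of the gene, with motif matches in capitals:
Scn4b (chr8:54343623-54343922, plus strand): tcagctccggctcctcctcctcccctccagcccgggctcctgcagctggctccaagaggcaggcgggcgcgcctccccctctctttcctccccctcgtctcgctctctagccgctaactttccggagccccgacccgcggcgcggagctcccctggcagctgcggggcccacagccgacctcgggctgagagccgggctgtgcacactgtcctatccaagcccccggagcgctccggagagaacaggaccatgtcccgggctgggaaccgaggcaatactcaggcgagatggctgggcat
Scn3a (chr3:70666149-70666448, minus strand): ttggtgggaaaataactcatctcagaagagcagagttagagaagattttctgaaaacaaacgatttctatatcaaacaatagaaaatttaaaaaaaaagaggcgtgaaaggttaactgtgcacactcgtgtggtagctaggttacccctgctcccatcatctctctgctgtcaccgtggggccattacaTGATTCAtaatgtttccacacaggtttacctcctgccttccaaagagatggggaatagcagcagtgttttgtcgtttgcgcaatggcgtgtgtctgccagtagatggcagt
Cacng5 (chr10:93336618-93336917, minus strand): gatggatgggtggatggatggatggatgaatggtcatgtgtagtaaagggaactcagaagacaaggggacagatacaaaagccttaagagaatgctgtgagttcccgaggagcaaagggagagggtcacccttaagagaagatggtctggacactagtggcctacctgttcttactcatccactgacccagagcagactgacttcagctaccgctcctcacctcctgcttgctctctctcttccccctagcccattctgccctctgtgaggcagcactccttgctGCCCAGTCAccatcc
Cacng3 (chr1:186632312-186632611, plus strand): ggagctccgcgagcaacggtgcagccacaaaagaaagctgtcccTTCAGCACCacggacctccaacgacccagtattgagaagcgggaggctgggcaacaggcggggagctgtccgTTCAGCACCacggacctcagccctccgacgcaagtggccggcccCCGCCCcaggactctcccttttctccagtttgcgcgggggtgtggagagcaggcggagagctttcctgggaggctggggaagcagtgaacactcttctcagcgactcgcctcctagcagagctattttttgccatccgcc
Scn7a (chr3:71846235-71846534, minus strand): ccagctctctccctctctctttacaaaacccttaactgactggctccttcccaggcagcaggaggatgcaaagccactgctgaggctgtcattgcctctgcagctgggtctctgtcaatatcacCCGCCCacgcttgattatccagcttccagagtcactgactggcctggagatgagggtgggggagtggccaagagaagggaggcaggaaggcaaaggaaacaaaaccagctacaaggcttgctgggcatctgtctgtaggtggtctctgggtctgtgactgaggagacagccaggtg

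Capitals mark an AP-1 site (TGANTCA) in Scn3a, the antioxidant response element core (TGACNNNGC, here on the opposite strand) in Cacng5, a GC box in Scn7a, and a GC box and a pair of RE1 left arms (TTCAGCACC) in Cacng3. The Scn4b window held none of the motifs searched, which also included the TATA box (TATAAA). In all windows the AP-1 site was found in 7.33%, the antioxidant core in 12.1%, the TATA box in 14.2% and the RE1 left arm in 0.356%. Among the channel genes with a window, Scn3a alone held the AP-1 site, Cacna1c and Cacng5 the antioxidant core, and Cacng3 alone the RE1 left arm. These matches are descriptions of letters in a window, not sites in use. Several channel genes are neighbours in this build: Scn2a lies beside Scn3a, Scn4b beside Scn2b, Cacng4 between Cacng1 and Cacng5, and Scn9a between Scn1a and Scn7a. Of these pairs, Cacng4 and Cacng5 were both lower with Tat, while Scn4b was higher and Scn2b was not called.

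**Figure D3:**
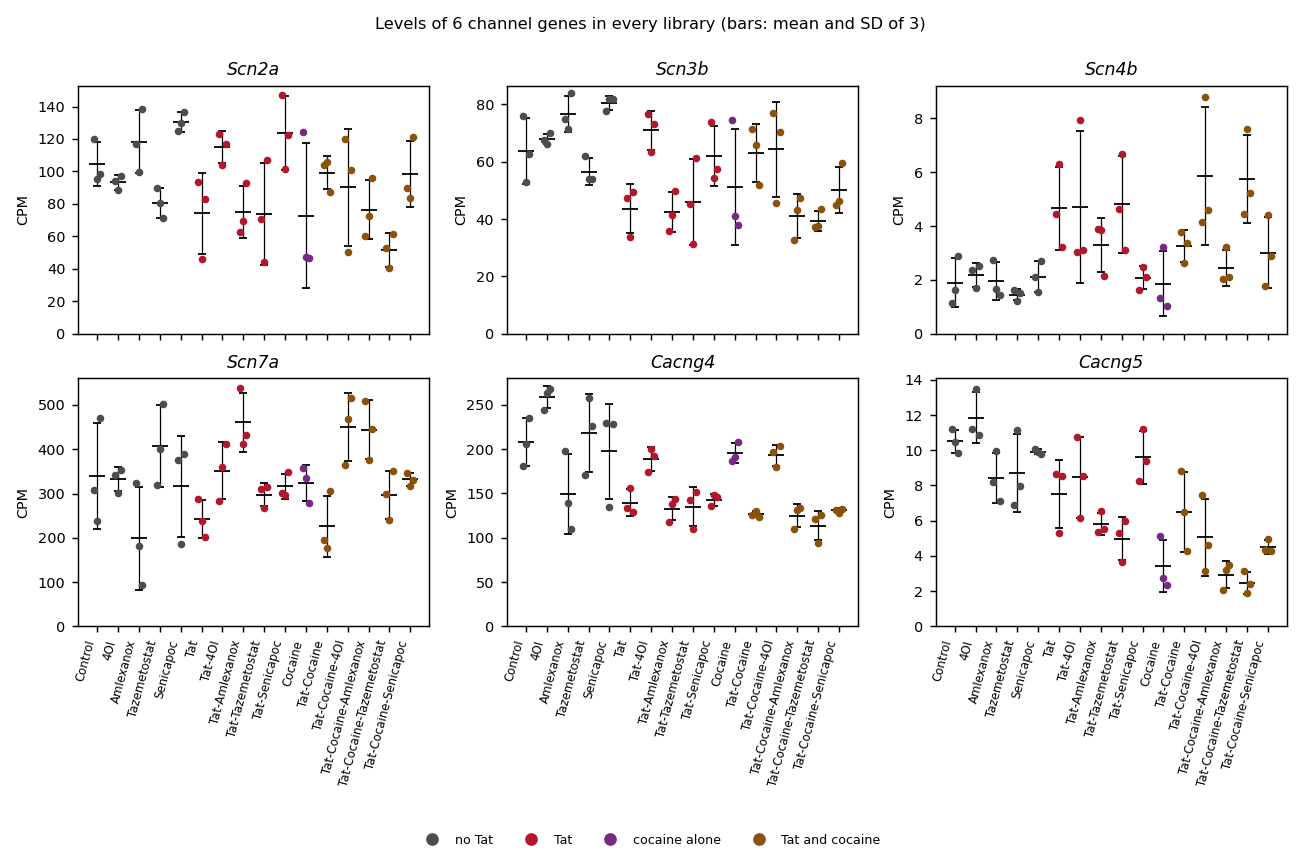
CPM of Scn2a, Scn3b, Scn4b, Scn7a, Cacng4 and Cacng5 in each of the 48 libraries (points), with the mean and SD of each group of 3. The Tat libraries of Scn4b (3.21 to 6.30 CPM) lie above Control (1.15 to 2.91 CPM), Cacng5 reaches its lowest value (1.89 CPM) in Tat-Cocaine-Tazemetostat, and Scn7a spans 92.3 to 537 CPM.

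Cocaine was tested alone and on top of Tat. Cocaine against Control called 1 channel gene, where 0.201% of all genes (32) were called, 0.164% lower. Cacng5 fell by 1.55 log2 units (SE 0.26, FDR 0.0147 in limma). Its libraries held 11.2, 10.4 and 9.85 CPM in Control and 5.14, 2.76 and 2.37 CPM in Cocaine, with no overlap. At an unadjusted p under 0.05 stood 17 of the 33 genes and 1996 of all 15890. The neuron markers had a median of -0.73 with 1 of 16 lower, and their part was not tested. The 3 Cocaine libraries were unlike each other: the mean log2 level of the neuron markers was 7.37 in Cocaine 1, 6.04 in Cocaine 2 and 5.89 in Cocaine 3. Scn2a followed with 125, 47.1 and 46.9 CPM and Scn8a, the Nav1.6 subunit of the axon initial segment, with 50.3, 20.03 and 20.4 CPM. Without Cocaine 1 the comparison called 20 of the 33 channel genes lower, where 10.9% of all genes were called in either direction. Among the 20 were Cacng5 (-1.84), Cacng3 (-1.38), Cacng2 (-1.37), Cacna2d3 (-1.24), Scn8a (-1.18), Scn2a (-1.14) and Cacna1a (-1.05). Without Cocaine 3, Control 1 or Control 2 the comparison called 0, as it did with these 2 groups fitted alone.

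Cocaine added to Tat, averaged over the 5 backgrounds, called 5 channel genes, all lower, 15.2% of the channel genes against 4.55% of all genes (2.91% lower). Cacng5 changed by -0.74 (SE 0.12, FDR 0.000189), Cacna1g by -0.52 (SE 0.10, FDR 0.00276), Cacna2d2 by -0.43 (SE 0.13, FDR 0.0423), Cacna1a by -0.36 (SE 0.10, FDR 0.0263) and Cacnb2 by -0.33 (SE 0.07, FDR 0.00847), all in limma. Cacng5 held 3.64, 6.52 and 11.2 CPM (lowest, median, highest) without cocaine and 1.89, 4.26 and 8.81 CPM with it. Cacna1g, the Cav3.1 T-type pore, held 19.2, 30.1 and 42.7 CPM and 10.5, 20.7 and 35.8 CPM. The arms overlapped for both genes over all backgrounds. Within backgrounds Cacng5 was lower in 5 of 5, Cacna1g in 4 of 5 and Cacnb2 in 5 of 5. The direction of most channel genes varied between backgrounds. Without a small molecule cocaine added to Tat called 0 of 33 channel genes, and 25 lay above 0 (median 0.20). There 3 stood at an unadjusted p under 0.05, as did 1297 of all genes. The channel genes below 0 numbered 28 with 4OI, 27 with Amlexanox, 32 with Tazemetostat and 30 with Senicapoc. The cocaine effect with a small molecule minus that without it, an added test, called 0 channel genes for each small molecule. Channel genes at an unadjusted p under 0.05 numbered 9 for 4OI, 0 for Amlexanox, 12 for Tazemetostat and 16 for Senicapoc. Of all genes 2128, 587, 2373 and 2643 stood at that p. A difference between these backgrounds was thus not shown for any channel gene. In the average 4 of 16 neuron markers were lower (median -0.36), and their part was not tested. Cocaine effects in Tat and in Control cultures were compared with an added difference test, which called 0 channel genes (20 at an unadjusted p under 0.05) and 0 of all genes (1757 at that p). Without the background that has no small molecule 9 channel genes were called. Leaving out Tat-Amlexanox 3, Tat-Tazemetostat 3, Tat-Senicapoc 1, Tat-Cocaine-Amlexanox 1, Tat-Cocaine-4OI 2 or Tat-Cocaine-Senicapoc 2 lowered the 5 calls to 3. Same-numbered libraries with and without cocaine moved together in the 4OI, Amlexanox and Tazemetostat backgrounds, but not with Senicapoc or without a small molecule. The main test did not use this pairing, and no fit of these groups alone with a block was run.

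Tat-Cocaine against Control called 1 channel gene where 14.9% of all genes were called (6.3% lower). Without Tat-Cocaine 1 it called 2. Cacng4 changed by -0.70 log2 units (SE 0.17, FDR 0.00348 in limma), with 126, 130 and 124 CPM in Tat-Cocaine and 181, 206 and 235 CPM in Control, and the groups did not overlap. Same-numbered libraries of these groups moved together. In a fit of these groups alone with the replicate number as a block, 4 channel genes were lower, Cacng4 (-0.70), Cacna2d2 (-0.67), Scn7a (-0.57) and Scn8a (-0.32), among 14.9% of all genes. In the fit without a block 3 of 8 astrocyte markers were lower (median -0.32), 1 of 4 fibroblast and vascular markers tested was higher (median 1.10) and the neuron markers had a median of -0.24 with 0 of 16 called. Their part was not tested.

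4OI was compared with its absence in each setting. Averaged over 3 backgrounds (Control, Tat and Tat-Cocaine) it called 2 channel genes higher, where 22.8% of all genes were called (11% higher): Cacng4 rose by 0.46 log2 units (SE 0.10, FDR 0.000633) and Scn7a by 0.53 (SE 0.17, FDR 0.0201), in limma. Cacng4 held 245, 263 and 268 CPM in 4OI against 181, 206 and 235 CPM in Control. It held 174, 200 and 193 CPM in Tat-4OI against 134, 156 and 129 CPM in Tat, and the matched groups did not overlap in any of the 3 backgrounds. Scn7a was higher in 2 of 3 backgrounds and lower in 1, and its matched groups did not overlap in 1. Its libraries held 341, 302 and 353 CPM in 4OI against 309, 239 and 471 CPM in Control, and these overlapped. In the same average 4 of 8 astrocyte markers were higher and 6 of 8 microglia and myeloid markers lower, and their part was not tested. Without the Tat-Cocaine background, or without Control 2, the average called 1 gene, and without Tat-Cocaine-4OI 2 it called 4. 4OI against Control called 0 of 33 genes (0 at an unadjusted p under 0.05, against 2082 of all 15890) where 3.15% of all genes were called.

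In Tat cultures 4OI called Scn3b, which rose by 0.71 log2 units (SE 0.21, FDR 0.0212 in limma), where 15.6% of all genes were called (6.1% higher). Its libraries held 47.5, 33.8 and 49.6 CPM in Tat and 76.5, 63.4 and 73.0 CPM in Tat-4OI, with no overlap. Of the 33 genes 31 lay above 0 and 11 stood at an unadjusted p under 0.05, as did 4998 of all 15890. The neuron markers had a median of 0.58 with 0 of 16 called, 1 of 8 astrocyte markers was higher, and 2 of 8 microglia and myeloid markers were lower (median -1.08). Their part was not tested. Without Tat 2, Tat-4OI 1 or Tat-4OI 3 the comparison called 0 channel genes, without Tat 1 it called 2 and without Tat 3 it called 4. In Tat-Cocaine cultures 4OI called 3 channel genes where 7.36% of all genes were called (4.07% higher, 3.29% lower). Cacng4 (0.60, SE 0.17, FDR 0.0221) and Scn7a (1.02, SE 0.29, FDR 0.025) were higher, and Cacna1g (-0.82, SE 0.23, FDR 0.0239) was lower. Scn7a held 196, 176 and 305 CPM in Tat-Cocaine and 365, 469 and 517 CPM in Tat-Cocaine-4OI. The groups did not overlap, and 4 of 8 astrocyte markers were higher there too. Of the 33 genes 27 lay below 0 in Tat-Cocaine cultures (median -0.15). The neuron markers had a median of -0.20 there with 0 of 16 called, and the part of the markers was not tested. Without Tat-Cocaine 1 or 2 the comparison called 0 channel genes, and without Tat-Cocaine-4OI 2 or 3 it called 1. The Tat effect with 4OI minus the Tat effect without it called 0 channel genes (2 at an unadjusted p under 0.05, and 1896 of all 15890), where 0.497% of all genes were called. The 4OI effect in Tat-Cocaine minus that in Tat cultures, an added test, called 0 channel genes, with 28 of 33 below 0. At an unadjusted p under 0.05 stood 9 of them and 2128 of all 15890.

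Amlexanox, averaged over 3 backgrounds, called Cacng5, which changed by -0.54 log2 units (SE 0.15, FDR 0.0205 in limma), where 7.99% of all genes were called (3.88% lower). Its level was 4.27, 8.67 and 11.2 CPM (lowest, median, highest) without Amlexanox and 2.09, 5.54 and 9.93 CPM with it, and the arms overlapped. Without Tat-Cocaine 1 or Tat-Cocaine-Amlexanox 1 the average called 0, and without Amlexanox 1 or 3 it called 2. Amlexanox against Control called Scn7a (-0.89, FDR 0.0407) and Cacng4 (-0.51, FDR 0.0431) lower, where 11.4% of all genes were called (7.6% lower). Of the astrocyte markers 5 of 8 were lower too (median -0.61), and their part was not tested. Without Control 3, Amlexanox 2 or Amlexanox 3 it called 0 and without Control 2 it called 1. Amlexanox 3 had the lowest astrocyte marker sum of all 48, 5445 CPM, against a highest of 12966 CPM in the same group.

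Tat added to Amlexanox called 14 channel genes, 13 of them lower, where 39.6% of all genes were called (17% lower). Among the lower ones were Cacna2d2 (-1.04), Cacna2d3 (-0.94), Scn3b (-0.86), Cacna1e (-0.71), Cacna1b (-0.70), Scn3a (-0.69) and Cacnb1 (-0.66), and Cacna1h, Scn2b, Cacna1d, Cacna1c and Cacng7 followed. Of the neuron markers 7 of 16 were lower in this comparison (median -0.69), 4 of 8 microglia and myeloid markers were higher (median 1.03), as were 2 of 8 astrocyte markers, and their part was not tested. The replicate numbers paired these groups, and with the number as a block in a fit of these groups alone 24 channel genes were called, 22 lower and 2 higher, among 38.2% of all genes (17.3% lower). Without Amlexanox 3 the comparison called 4, without Tat-Amlexanox 1 it called 5 and without Tat-Amlexanox 2 it called 6.

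Scn7a was the gene that rose. Its libraries held 323, 182 and 92.3 CPM in Amlexanox and 537, 411 and 433 CPM in Tat-Amlexanox, a change of 1.38 log2 units (SE 0.29, FDR 0.000716 in limma), and every Tat-Amlexanox library was above every Amlexanox library. In the matched groups without Amlexanox it held 309, 239 and 471 CPM in Control and 288, 237 and 202 CPM in Tat, and these overlapped. The Tat effect with Amlexanox minus that without it was 1.82 (SE 0.41, FDR 0.0236), where 1.84% of all genes were called (1.41% higher) and no other channel gene was. Without Amlexanox 3 the difference was 1.36 and its limma FDR 0.167. It also missed the threshold without Tat 2, Tat 3, Control 3 or Tat-Amlexanox 1, and with the 4 groups fitted alone (FDR 0.207).

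Tazemetostat, averaged over 3 backgrounds, called 10 channel genes, all lower, where 11.4% of all genes were called (4.65% lower). The 8 largest were Cacng5 (-0.68, SE 0.15, FDR 0.00665 in limma), Cacna1i (-0.64), Scn3a (-0.56), Cacna2d3 (-0.56), Cacna1e (-0.52), Cacna1c (-0.48), Scn8a (-0.45) and Cacna1b (-0.44), and Cacna1g and Cacnb1 were the others. Of the neuron markers 4 of 16 were lower. Without the Tat-Cocaine background 0 channel genes were called. Tazemetostat against Control and added to Tat called 0 each, where limma called 0 genes in all. At an unadjusted p under 0.05 stood 0 channel genes (576 of all genes) against Control and 2 (851 of all genes) in Tat cultures. The replicate numbers paired Control with Tazemetostat, and a fit of these groups alone with the number as a block called 0 channel genes and 0.0869% of all genes (13). Leaving out 1 library moved the 10 calls to between 2 (without Tat-Tazemetostat 2) and 18 (without Tat-Tazemetostat 3). Without Tat 2 it was 17, without Control 2 it was 6, without Tazemetostat 2 it was 4, and without Tat 1, Tat 3, Control 1, Tat-Cocaine 1, Tat-Cocaine 2, Tazemetostat 3 or Tat-Cocaine-Tazemetostat 2 it was 3.

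Tazemetostat added to Tat-Cocaine called 19 channel genes, all lower, 57.6% against 28.7% of all genes (13.4% lower). Neither Scn7a nor Scn9a was among them. The 8 largest were Cacna1i (-1.39, SE 0.34, FDR 0.00833 in limma), Cacna2d3 (-1.30), Cacng5 (-1.21), Scn3a (-1.17), Cacng8 (-1.09), Cacna1g (-1.03), Cacna1e (-1.01) and Scn2a (-0.95), and the range of the others was -0.94 to -0.48. Cacna1i held 39.3, 27.5 and 21.3 CPM in Tat-Cocaine and 12.8, 8.0 and 11.6 CPM in Tat-Cocaine-Tazemetostat. Scn3a held 33.2, 32.9 and 24.4 CPM and 13.3, 10.1 and 16.1 CPM, and neither gene overlapped between the groups. In the same comparison 12 of 16 neuron markers were lower and 4 of 8 microglia and myeloid markers higher. The summed neuron markers ranged from 1439 to 2122 CPM with Tazemetostat and from 2995 to 3847 CPM without it, and their part was not tested. Without Tat-Cocaine-Tazemetostat 2 the comparison called 0 channel genes, without Tat-Cocaine 1 it called 1 and without Tat-Cocaine 2 it called 6. The Tazemetostat effect in Tat-Cocaine minus that in Tat cultures, an added test, called 0 channel genes (12 at an unadjusted p under 0.05) and 0 of all genes (2373 at that p).

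Tat added to Tazemetostat called 4 channel genes where 16.1% of all genes were called (10.4% higher, 5.63% lower). In the same comparison 4 of 8 astrocyte markers were lower (median -0.36) and 2 of 8 microglia and myeloid markers higher (median 0.79), and their part was not tested. Scn4b was higher (1.39, SE 0.35, FDR 0.00594 in limma), and Cacng5 (-0.75), Cacng4 (-0.69) and Cacna1d (-0.57) were lower. Scn4b held 1.61, 1.21 and 1.52 CPM in Tazemetostat and 4.64, 6.68 and 3.10 CPM in Tat-Tazemetostat, without overlap. Without Tat-Tazemetostat 2 the comparison called 0 channel genes and without Tazemetostat 2 it called 2. In Tat-Senicapoc Scn4b held 1.64, 2.48 and 2.12 CPM against 2.11, 1.55 and 2.71 CPM in Senicapoc, and these overlapped, with a change of -0.01 that was not called.

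Senicapoc called 0 channel genes in its average over 3 backgrounds (5 at an unadjusted p under 0.05, and 2852 of all 15890), where limma called 1.16% of all genes. Added to Tat it called 0 as well, where 0.409% of all genes were called, with 19 of 33 genes at an unadjusted p under 0.05 (2909 of all 15890) and 30 above 0. The neuron markers had a median of 0.66 with 0 of 16 called, and their part was not tested. As uncalled examples, Scn8a held 39.8, 23.3 and 37.2 CPM in Tat and 61.7, 43.8 and 50.7 CPM in Tat-Senicapoc. Cacna1g held 31.4, 20.6 and 28.9 CPM against 42.7, 41.3 and 38.8 CPM. The libraries did not overlap for these genes, but overlap in this comparison was not counted over the channel genes or over all genes. Tat added to Senicapoc called 0 channel genes where 16% of all genes were called. Senicapoc added to Tat-Cocaine called 0 too, with 27 of 33 genes below 0 (median -0.14). There 1 stood at an unadjusted p under 0.05, and 2466 of all 15890.

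**Figure D4:**
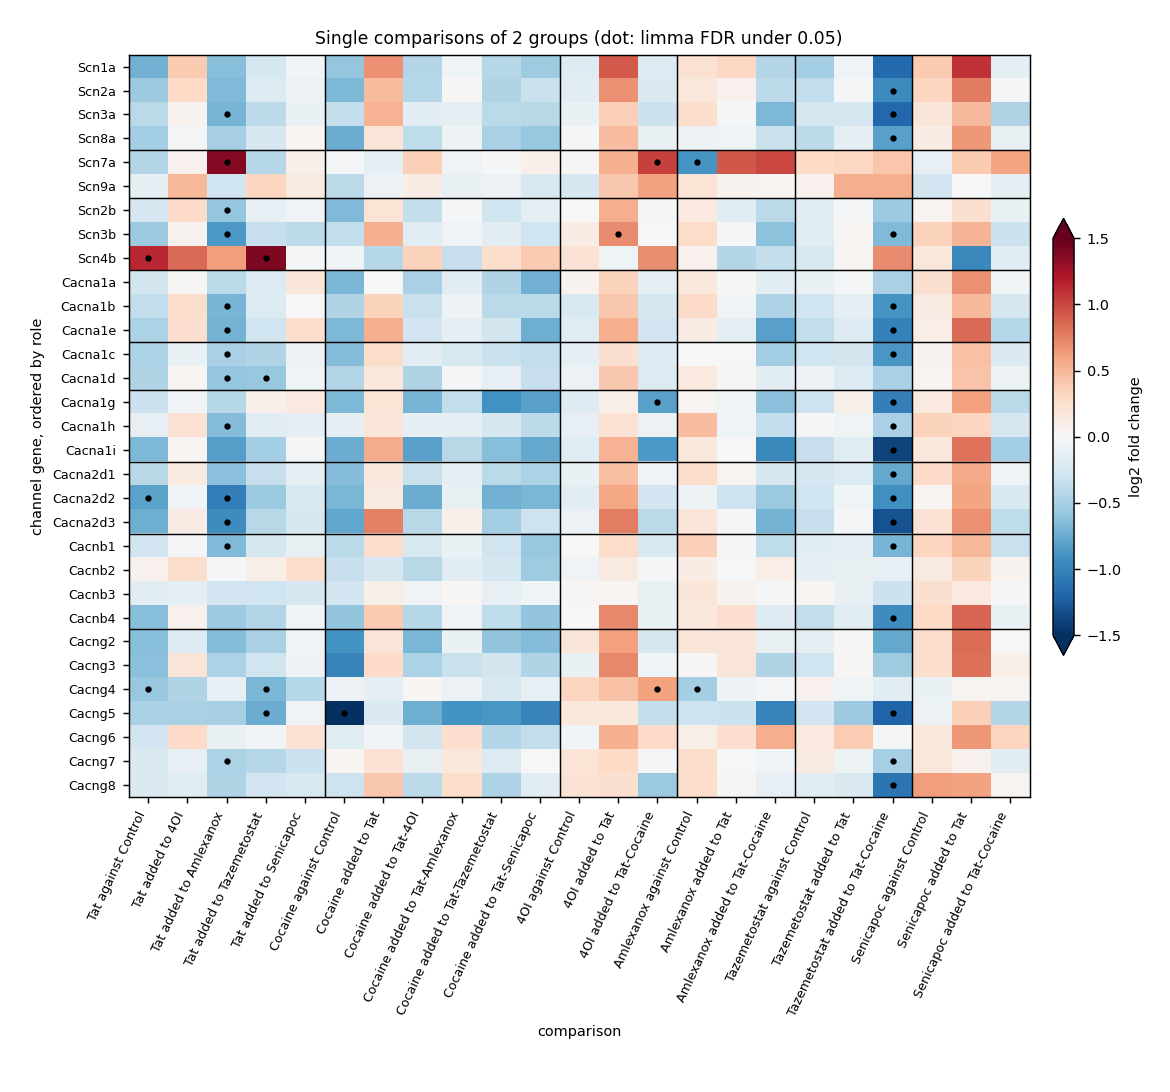
Log2 fold change of 31 channel genes (rows, by role) in 23 comparisons of a pair of groups (columns), with a mark in the 45 of 713 cells at FDR under 0.05. Tazemetostat added to Tat-Cocaine (18 marks) and Tat added to Amlexanox (13 marks) hold most of them.

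Proteins that anchor or regulate the channels were followed as a list of channel partners. With Tat, averaged over 5 backgrounds, 17 of 29 partners tested were lower and 1 was higher, against 26.7% of all genes lower and 29.9% higher, and 10 of 16 neuron markers lower. The 3 largest were Camk2a (-0.64, FDR 0.00149), a calcium-dependent kinase of the synapse, Rimbp2 (-0.59, FDR 0.000578), which tethers calcium channels at release sites, and Fgf12 (-0.51, FDR 0.000839), which binds the tail of sodium channels. Stac2, an adaptor of L-type channels, was higher (0.54, FDR 0.0224). With cocaine added to Tat Fgf11 (-0.57) and the calcium channel regulator Rem2 (-0.54) were lower. With Tazemetostat Rimbp2 (-0.62) and Ank3 (-0.44), the ankyrin that gathers sodium channels at the axon initial segment, were lower. With 4OI Gem (0.68), a small GTPase that holds calcium channels back, and the adhesion proteins Nrcam (0.45) and Cntn1 (0.30) were higher, all in limma.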

How the data were processed

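RNA-seq was measured in 48 libraries, 3 in each of 16 groups taken from the labels. The authors prepared directional libraries from polyadenylated RNA, aligned reads with STAR and counted unique reads per gene with featureCounts (the submitters' notes list FastQC, Trim Galore 0.4.5, STAR 2.7.2, SAMtools 1.5 and Subread 1.5.3). The study's methods name a rat build that the notes do not (these give mRatBN7.2 and hg38), and the strand setting of the counting was not given in the sources used here. The signal the authors deposited is CPM after TMM scaling. Of the values of a library above 0, 85.2 to 87.5% were whole reads within 0.02 read and 98.7 to 99.2% whole reads or reads and a fraction of 0.5, so count tests were not run. Cacna1g, Cacna1h, Cacnb1, Cacng8 and Scn9a, among others, held such fractions, and their values are uncertain, as is Cacnb3, which overlaps Tuba1c. The deposited table also holds columns of the authors' own comparisons (log2 fold changes, p-values and FDR), which were not used. The number of per-sample columns that could not be mapped was 0.

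limma 3.58.1 (R 4.3.3) was fitted to log2(CPM + 0.5) with 1 mean per group over all 48 libraries and a mean-variance trend. Genes with at least 0.5 CPM in 3 libraries were tested (15890 of 30211, of which 6162 were at 0 everywhere), and p-values were adjusted over all of them by the Benjamini-Hochberg procedure. The test was checked on simulated data in which genes varied independently of each other. That check does not cover shifts that many genes of a library share. An exact permutation test of 3 against 3 libraries cannot go below 0.1. Replicates of a group differed beyond sampling noise (chi-square per degree of freedom 5.83 to 130). Same-numbered libraries deviated together, with each correlation over 0.1, in 27 of 120 pairs of groups, among them Control with 4OI, Control with Tat-Cocaine, Control with Tazemetostat and Amlexanox with Tat-Amlexanox, but not Control with Tat. Some genes that the counts include are not reported here by name. The other kept channel genes are named in the Tat average. Elsewhere the called ones (the 8 largest in each direction), some uncalled examples and the 3 largest changes of the partners are named. The members and lists were chosen with earlier results of these data known. Alternatives were other pseudocounts, filters, scalings, fits and left-out libraries. Promoter windows are from RefSeq, build GRCr8.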

Additional observations from a re-analysis of the deposited data

Results flagged for a closer look

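Scn7a was picked out because its Tat effect differed between cultures with and without Amlexanox by a test of the difference itself. The difference was 1.82 log2 units (SE 0.41, FDR 0.0236 in limma). Scn7a held 323, 182 and 92.3 CPM in Amlexanox, 537, 411 and 433 CPM in Tat-Amlexanox, 309, 239 and 471 CPM in Control and 288, 237 and 202 CPM in Tat. The astrocyte marker sum was lowest in Amlexanox 3 (5445 CPM), which also held the least Scn7a, and its part in the difference was not tested. The difference passed the test in 7 of 12 fits that left out a library, where it ranged from 1.36 to 2.26.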

How the results depend on the processing

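Of 86 called values of single genes none (0) turned its direction under an alternative, and 18 passed the test under every alternative run. Counts of channel genes called moved as follows. Most counts under an alternative are given without the share of all genes called. They cannot show whether the channel genes moved more than other genes. Without a filter on low values Tat against Control called 2, Tazemetostat averaged 4, Tat added to Tazemetostat 2 and Amlexanox against Control 0. With quantile normalization 4OI added to Tat called 2. With the replicate number as a block over all 48 libraries Tazemetostat averaged called 17 and 4OI added to Tat 3. Fitted to the compared groups alone, Tat against Control called 1, Cocaine against Control 0, Tazemetostat averaged 3, 4OI added to Tat 3, 4OI added to Tat-Cocaine 1, Tat added to Tazemetostat 1, Amlexanox against Control 0 and the difference of the Tat effect with and without Amlexanox 0. The following settings, and the difference tests of compound and cocaine effects between backgrounds, were chosen after seeing the data. A block in the compared groups alone gave 4 for Tat-Cocaine against Control and 24 for Tat added to Amlexanox, and 0 for 4OI and for Tazemetostat against Control. Without the Amlexanox background the Tat average called 10 (2 higher, 8 lower), without the Tat-Cocaine background Tazemetostat called 0 and 4OI 1, and without the background that has no compound cocaine added to Tat called 9. The causes were not tested. Quantile normalization moved the share of higher genes among all calls of the Tat average from 52.9% to 40.8%, of Tat against Control from 68.5% to 54.6%, of Cocaine against Control from 18.8% to 33.3%, of Amlexanox averaged from 51.5% to 63.3%, of 4OI added to Tat from 39.2% to 49.98%, of Tat added to Amlexanox from 57.1% to 45.8% and of Tat added to Tazemetostat from 64.96% to 53.1%.

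Leaving out each library in turn gave 14 to 22 for the Tat average, 1 to 6 for Tat against Control, 1 to 2 for Tat-Cocaine against Control, 0 to 20 for Cocaine against Control, 3 to 6 for cocaine added to Tat, 1 to 4 for 4OI averaged, 0 to 2 for Amlexanox averaged, 2 to 18 for Tazemetostat averaged, 0 to 4 for 4OI added to Tat, 0 to 3 for 4OI added to Tat-Cocaine, 4 to 16 for Tat added to Amlexanox, 0 to 6 for Tat added to Tazemetostat, 0 to 3 for Amlexanox against Control, 0 to 21 for Tazemetostat added to Tat-Cocaine and 0 to 1 for the difference of the Tat effect with and without Amlexanox. Low genes such as Scn4b rest on few reads, and the pseudocount shrinks their fold changes.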

Other observations

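Cacna2d4, the alpha2delta gene just under the level limit, and the other 6 genes left out had means from 0.059 to 0.497 CPM over the 48 libraries. Cacnb3 was highest in the library highest in astrocyte markers in 13 of 16 groups and in the library highest in neuron markers in 6. Cacng8 did so in 10 of 16 groups for the astrocyte markers and in 8 for the neuron markers. For the lowest library the order turned. Cacnb3 matched the astrocyte markers in 7 groups and the neuron markers in 9, and Cacng8 in 9 and 10. These counts are descriptions of the order of libraries and carry no test.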
